A study of Canis lupus familiaris with 28 samples.

Results

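UFL1 and the other genes of the ufmylation pathway were followed in blood RNA of dogs with atopic dermatitis (AD dogs) and of healthy dogs. The genes were UFL1, UFM1, UFC1, UFSP2, DDRGK1 and CDK5RAP3, and every probe with one of these gene names was taken. The array held 10 such probes for 5 of the 6 genes, out of 43603 probes in all, and all 10 passed the filter on signal that kept 30202 probes. No probe carried the name UFM1, and none carried one of the 5 older names of members that were searched. UFL1 was taken up because 1 of its 3 probes, A_11_P125086, was lower in AD dogs. The contrast that chose this probe is therefore described without a test, and tests are given for the other 9 probes.

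Whole blood was drawn into RNA-stabilizing tubes from 20 AD dogs and from 8 healthy dogs, and the RNA of each dog was run on its own two-color Agilent canine array. The AD dogs were privately owned, both groups held both sexes and various breeds, and no strain, transgene or experimental treatment was involved. The AD dogs showed clinical signs at sampling and had been kept off anti-inflammatory drugs before their allergy tests, and the blood counts of both groups lay within reference ranges. The Cy5 channel held the RNA of the dog and the Cy3 channel a common reference, a pool of blood RNA from 13 other healthy dogs. The log2 ratio of both channels (dog over reference), centered on the median of each array, is the level reported for each probe. A log2 difference is always AD minus healthy, taken between the group means of this ratio. In bulk blood, fewer cells of a type that carries a transcript and less transcript in each cell cannot be told apart.

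Ufmylation is the attachment of the small ubiquitin-like protein UFM1 to other proteins. UFM1 is passed to the carrier enzyme UFC1 and placed on its targets by UFL1, a ligase that works at the membrane of the endoplasmic reticulum (ER) together with the adaptors DDRGK1 and CDK5RAP3. The protease UFSP2 removes UFM1 again. The best known target is RPL26, a protein of the ribosomes docked on the ER, and in blood the pathway is known for its role in the development of red cells.

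The 3 UFL1 probes lie on chromosome 12 of the canFam3 build, as printed in the files with ascending positions, and all 3 are assigned to 1 transcript. A_11_P172043 lies at chr12:55007288-55007347, A_11_P0000020758 at chr12:55021559-55021618 and A_11_P125086 at chr12:55021752-55021811. The last 2 start 193 bases apart, and A_11_P172043 starts 14464 bases before A_11_P125086. The files do not give exons, introns or untranslated regions. The sequences of these probes are shown because they differ in a feature that the choice of the members did not use. A_11_P125086 carries a CA dinucleotide repeat of 22 bases, bases 5 to 26 of its 60 bases, which is in capitals below. For the other 2 probes the longest CA or TG run was 4 bases. A_11_P125086 had no reading frame without a stop codon, and each of the other 2 had 1 open frame over its whole length.

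UFL1 A_11_P125086, bases 1 to 30: cagaCACACACACACACACACACACAtaat
UFL1 A_11_P172043: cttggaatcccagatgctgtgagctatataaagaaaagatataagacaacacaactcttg
UFL1 A_11_P0000020758: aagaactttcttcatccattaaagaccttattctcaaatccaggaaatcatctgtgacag

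Signal and layout of the arrays differed between the groups. The share of probes well above background on the Cy5 side was 51.7% to 87.4% for AD dogs and 84.3% to 90.3% for healthy dogs. The arrays lay on 8 slides and were scanned on 5 days. Healthy dogs were on slides 2 and 3, both scanned on day 2, and no slide or scan day held both groups, so slide, scan day and disease cannot be told apart. With limma, 0 of all probes reached the study's threshold, an adjusted p no higher than 0.085, and 0 reached 0.05. The study itself reported differential transcripts at that threshold, UFL1 among them, after a filter that left fewer transcripts. Without adjustment 1847 probes (6.12%) fell under a p of 0.05, 4.46% of all probes in the direction of lower values in AD dogs. Precision is limited by the number of arrays.

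The UFL1 probe A_11_P125086 was lower in AD dogs, and healthy dogs were spread more widely. In AD dogs its log2 ratio ran from -0.75 to 0.64 with a median of -0.38, and in healthy dogs from -0.48 to 2.27 with a median of 0.23. The groups overlapped, since 11 AD dogs lay within the range of healthy dogs and 9 lay below the lowest of them. AD dog 17 was the only AD dog above 0. Healthy dog 5, at 2.27, stood far above the next healthy dog, dog 7 at 0.87. AD dogs had a mean of -0.34 ± 0.31 (SD, n = 20) against 0.38 ± 0.88 (SD, n = 8) for healthy dogs, which is a log2 difference of -0.72 (standard error 0.21), or 1.65-fold lower. A total of 19 of the 20 AD dogs lay below the mean of healthy dogs, as at least 19 did for 1.59% of all probes, and this count belongs to the contrast that chose the probe.

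The size of this difference depended on the 4 healthy dogs of slide 3. On that slide the probe ran from 0.17 to 2.27, and on slide 2 the healthy dogs ran from -0.48 to 0.39, with dog 3 as the only one above 0. The means of the 6 slides with AD dogs lay between -0.44 and -0.16. Without slide 3 the log2 difference was -0.20, and without slide 2 it was -1.24. Without healthy dog 5 alone it was -0.45, with a healthy mean of 0.11 ± 0.47 (SD, n = 7).

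Neither of the other UFL1 probes had a difference past the test. A_11_P172043 ran from -1.06 to 0.33 in AD dogs (median -0.32) and from -0.70 to 0.24 in healthy dogs (median -0.22). The group ranges overlapped for 13 of the 20 AD dogs. The log2 difference was -0.11 (95% interval -0.46 to 0.24), with an unadjusted p of 0.533 and an adjusted p of 0.917 from limma. A_11_P0000020758, the probe that starts 193 bases before A_11_P125086, ran from -1.28 to 0.98 in AD dogs (median -0.26) and from -1.21 to 0.40 in healthy dogs (median 0.0021). Here 16 AD dogs lay within the healthy range. This probe was dim, with Cy5 medians of 151 (AD) and 132 (healthy), against 832 and 1042 for A_11_P125086. It was still well above background in all 20 AD and 8 healthy dogs. The log2 difference of A_11_P0000020758 was -0.14 (95% interval -0.64 to 0.37), with an unadjusted p of 0.589 and an adjusted p of 0.931 from limma. Whether the difference itself varied between the UFL1 probes was not tested. With the dog's channel alone the sign turned for both probes, to 0.10 and 0.58.

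Healthy dog 5 ranked differently on the 3 probes of UFL1. It was the highest healthy dog on A_11_P125086 at 2.27, the lowest on A_11_P0000020758 at -1.21 and ranked 6 of 8 on A_11_P172043 at -0.42. The value of -1.21 rested on a low Cy5 signal of 77, against 3622 for the same dog on A_11_P125086. AD dog 17, the highest AD dog on A_11_P125086, was at 0.0061 on A_11_P172043 and at 0.43 on A_11_P0000020758, where other AD dogs were higher.

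**Figure D1:**
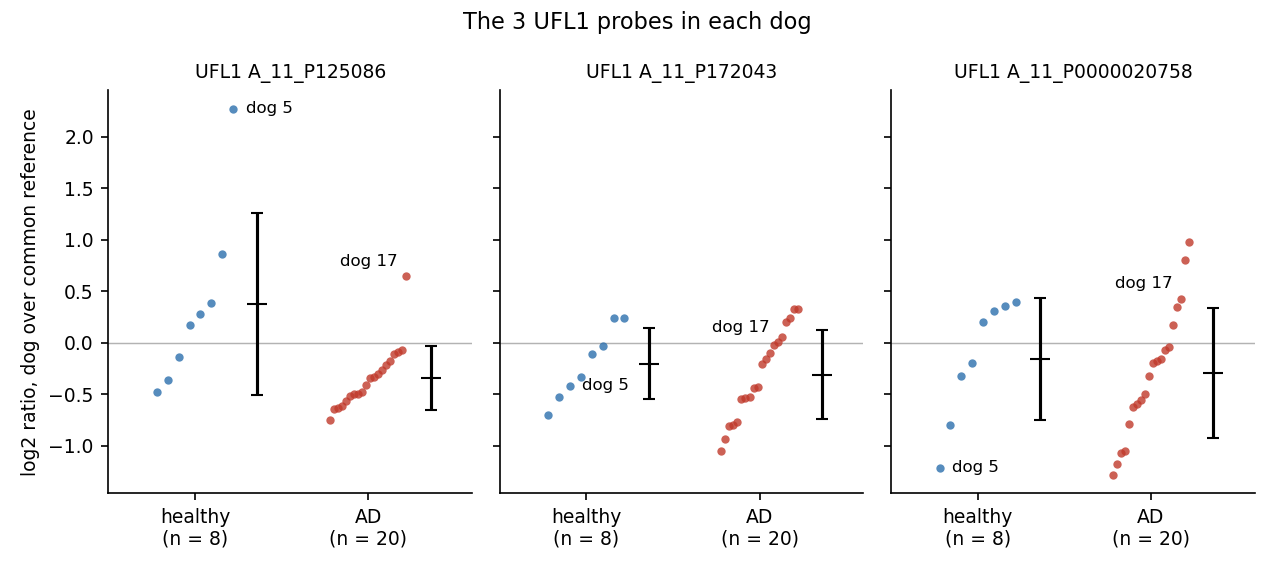
The plot shows the log2 ratio over common reference for each of the 3 UFL1 probes, with 1 point for each dog and the mean ± SD beside the points. Only A_11_P125086 has a healthy dog above 2, and on the other 2 probes the highest healthy dogs are at 0.24 and 0.40, below the highest AD dogs.

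Across dogs, the 2 other UFL1 probes varied together, and no relation of A_11_P125086 with either of them passed the test. In the 20 AD dogs, A_11_P172043 and A_11_P0000020758 had a Pearson's r of 0.841 and a Spearman's rho of 0.832, with an adjusted p of 0.0004 for both from 100000 permutations, two-sided, over a family of 20 correlations. Without the 2 dogs farthest from the median r was 0.801, and after each slide's mean was taken out it was 0.875. In the 8 healthy dogs r was 0.804 and rho 0.833 (unadjusted exact permutation p = 0.0166 for r, adjusted p = 0.166). A_11_P125086 against A_11_P172043 had r = 0.133 and rho = 0.047 in AD dogs (permutation p = 0.596 for r, adjusted p = 0.701), and r = -0.034 and rho = 0.238 in healthy dogs (exact permutation p = 0.943 for r, adjusted p = 0.979). Against A_11_P0000020758 it had r = 0.241 and rho = 0.203 in AD dogs (permutation p = 0.311 for r, adjusted p = 0.519), and r = -0.511 and rho = -0.095 in healthy dogs (exact permutation p = 0.193, adjusted p = 0.435). The difference between these correlations was not tested, and dogs on 1 slide share that slide.

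**Figure D2:**
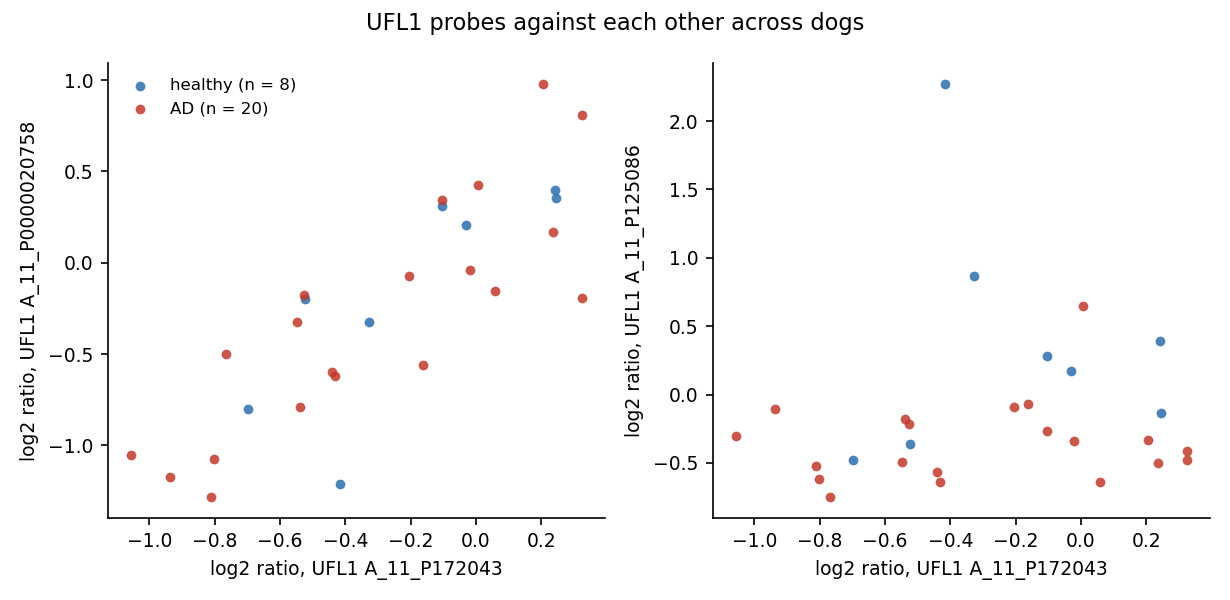
The panels plot the log2 ratios of UFL1 probes against each other, with 1 point for each dog. A_11_P172043 and A_11_P0000020758 form a rising band (r = 0.841 in AD dogs), and A_11_P125086 shows no such band against A_11_P172043 (r = 0.133).

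DDRGK1, the ER membrane protein that anchors UFL1, had 2 probes on chromosome 24. A_11_P066971 maps to chr24:18093085-18095725, so its 60 bases are split over a span of 2641 bases, and A_11_P0000039307 lies at chr24:18098054-18098113. A_11_P066971 ran from -0.65 to 0.50 in AD dogs (median 0.013) and from -0.29 to 0.12 in healthy dogs (median -0.050). The AD dogs spread to both sides of the healthy dogs, and 11 of them lay within the healthy range. The log2 difference was 0.090 (standard error 0.11), with an unadjusted p of 0.439 and an adjusted p of 0.902 from limma.

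Among the 9 probes that were tested, A_11_P0000039307 was the only one with an unadjusted p under 0.05. It ran from -2.38 to 0.69 in AD dogs (median -0.53) and from -0.55 to 0.75 in healthy dogs (median 0.12). The lowest value belonged to AD dog 14, 9 AD dogs lay below the lowest healthy dog, and 17 lay below the healthy mean. AD dogs had a mean of -0.52 ± 0.67 (SD, n = 20) and healthy dogs one of 0.064 ± 0.50 (SD, n = 8), a log2 difference of -0.59 (standard error 0.25), with an unadjusted p of 0.0249 and an adjusted p of 0.671 from limma. Its signal was low, with a median processed signal of 120 in the dog's channel of AD dogs and 148 in that of healthy dogs, and in 1 AD dog it was not well above background. The difference was -0.12 with limma's normexp background correction and loess, and -0.0085 with the dog's channel alone. Without slide 2, which held 4 of the 8 healthy dogs, it was -0.38 (unadjusted p of 0.254 from limma), and without slide 1, which held 4 AD dogs, it was -0.54 (unadjusted p of 0.0593). With array weights it was -0.77, at an adjusted p of 0.0497. Across AD dogs the 2 DDRGK1 probes had r = 0.322 and rho = 0.251 (permutation p = 0.165 for r, adjusted p = 0.188 over 8 correlations), and across healthy dogs r = -0.427 and rho = -0.619 (exact permutation p = 0.290 for r, adjusted p = 0.290). The difference between the 2 probes was not tested.

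CDK5RAP3, the adaptor that works with UFL1 and DDRGK1, had 3 probes on chromosome 9 with log2 differences between -0.25 and -0.21, none of which passed the test. A_11_P00000833 ran from -0.75 to 0.47 in AD dogs (median -0.25) and from -0.25 to 0.37 in healthy dogs (median 0.083). In this probe 8 AD dogs lay below the lowest healthy dog and 15 below the healthy mean. Its log2 difference was -0.25 (standard error 0.12), with an unadjusted p of 0.0542 and an adjusted p of 0.828 from limma. A_11_P081906 had medians of -0.31 and 0.0053 in AD and healthy dogs, with a log2 difference of -0.23 (standard error 0.13). By limma its p was 0.0878 unadjusted and 0.865 adjusted. A_11_P148518 had medians of -0.55 and -0.24, with a log2 difference of -0.21 (standard error 0.14) and a limma p of 0.158 unadjusted and 0.866 adjusted. For each of the 3 probes 15 of the 20 AD dogs lay below the healthy mean. The sign was negative under all 22 alternatives tried.

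The CDK5RAP3 probes also varied together between dogs. A_11_P00000833 at chr9:24285252-24285688 and A_11_P081906 at chr9:24285772-24285937 had r = 0.927 and rho = 0.853 in AD dogs (adjusted permutation p = 8.0e-05 for r, over 8 correlations, with an unadjusted p at the smallest that 100000 permutations can give). In healthy dogs they had r = 0.860 and rho = 0.952 (adjusted exact permutation p = 0.0184 for r). A_11_P148518 at chr9:24286213-24286272 had r = 0.593 and 0.568 with the other 2 in AD dogs, each with an adjusted permutation p of 0.0170. In healthy dogs its values were 0.787 and 0.913, with adjusted exact permutation p of 0.0277 and 0.00417. After slide means were taken out, the 6 values lay between 0.510 and 0.917.

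UFC1, the carrier enzyme that hands UFM1 to the ligase, had 1 probe, A_11_P0000024054 at chr38:21319059-21319118. It ran from -0.80 to 0.70 in AD dogs (median -0.31) and from -0.66 to 0.041 in healthy dogs (median -0.34). The 5 highest dogs were all AD dogs, 4 of them from slides 7 and 8 of scan day 5. Its log2 difference was 0.086 (standard error 0.15), with an unadjusted p of 0.566 and an adjusted p of 0.927 from limma. Without scan day 5 the sign turned, to -0.065.

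UFSP2, the protease that releases UFM1 from its targets, had 1 probe, A_11_P078521 at chr16:45229899-45229958. It ran from -1.26 to 0.84 in AD dogs (median -0.40) and from -0.81 to 0.31 in healthy dogs (median -0.44). The ranges overlapped for 13 AD dogs, with 5 AD dogs below the lowest healthy dog. The log2 difference was -0.044 (standard error 0.20), with an unadjusted p of 0.828 and an adjusted p of 0.977 from limma, and its sign turned under 5 of 22 alternatives. Against the share of probes well above background in each of the 20 AD dogs, UFC1 had r = -0.459 and rho = -0.415 and UFSP2 r = -0.458 and rho = -0.460 (permutation p = 0.0418 and 0.0422 for r). Neither passed the adjustment over 10 correlations (adjusted p = 0.211 for both), and without the 2 farthest dogs r was -0.470 and -0.557.

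**Figure D3:**
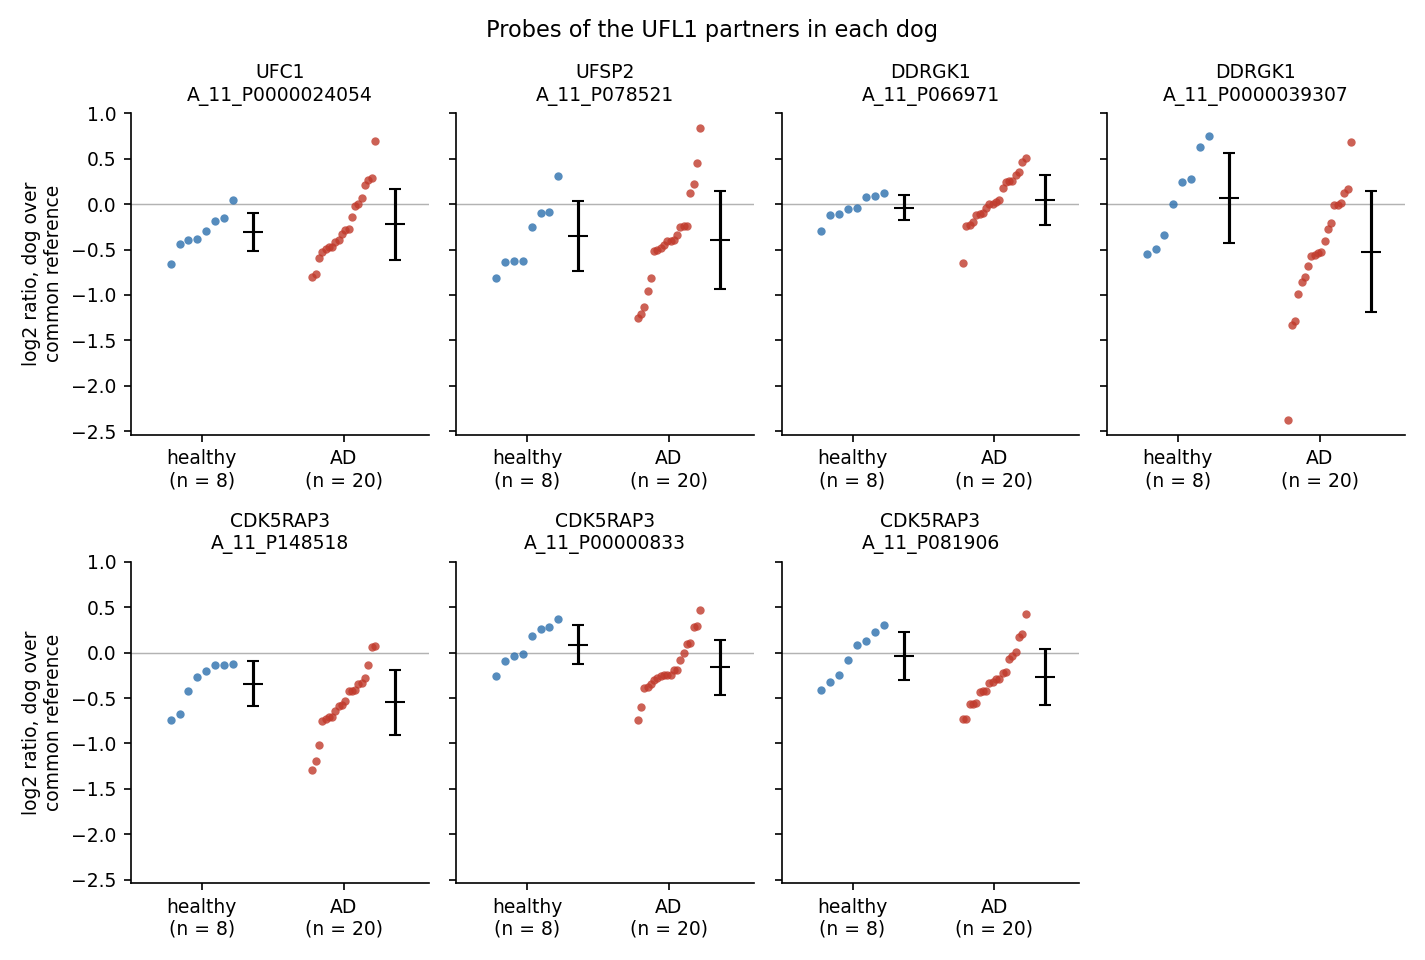
The panels show the log2 ratio over common reference for the 7 probes of UFC1, UFSP2, DDRGK1 and CDK5RAP3, with 1 point for each dog and the mean ± SD beside the points. The lowest point is AD dog 14 at -2.38 on DDRGK1 A_11_P0000039307, and on every panel the 2 groups overlap.

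Over the 9 probes that the choice did not use, 7 had a log2 difference below 0 and 2 above it, against 52.1% of all probes below 0. The split ran from 5 and 4 with the dog's channel alone to 9 and 0 with dog number as a block. With that block only AD dogs 1 to 8 are set against healthy dogs, by a number that separate animals share. The split was 8 and 1 with array weights and without scan day 5. The log2 differences lay between -0.59 and 0.090, with a median of -0.14 against -0.0096 over all probes. At an unadjusted p under 0.05 there was 1 of 9 probes (11.1%), against 6.12% of all probes, and 0 passed the adjustment with limma (lowest adjusted p 0.671). The count at an unadjusted p under 0.05 was 0 without slide 1, without slide 2 and with normexp. It was 3 without slide 5 and with array weights, and 5 with dog number as a block. Over all 30202 probes the counts in these settings were 1722, 1710, 1686, 2778, 6052 and 5177, in that order, against 1847 in the main fit. Probes of 1 gene are not independent of each other.

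The common reference RNA was identical on all arrays, yet its signal also differed between the arrays of AD and of healthy dogs. In this channel alone, quantile normalized between arrays, limma called 39.1% of all probes at the study's threshold of 0.085 (21.1% of all probes higher on AD arrays), and 4 of the 10 member probes, 3 of them higher. UFL1 A_11_P0000020758 was higher by 0.74 on the log2 scale on AD arrays (adjusted p = 0.00123), DDRGK1 A_11_P0000039307 by 0.64 (adjusted p = 0.00291) and DDRGK1 A_11_P066971 by 0.37 (adjusted p = 0.000353), all from limma. CDK5RAP3 A_11_P148518 was lower, with a difference of -0.14 (adjusted p = 0.0516 from limma). The chosen UFL1 probe differed by 0.14 in this channel (standard error 0.086, adjusted p = 0.202 from limma), and in the dog's channel alone its difference between AD and healthy dogs was -0.57. How far the reference channel entered the ratios was not tested.

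**Figure D4:**
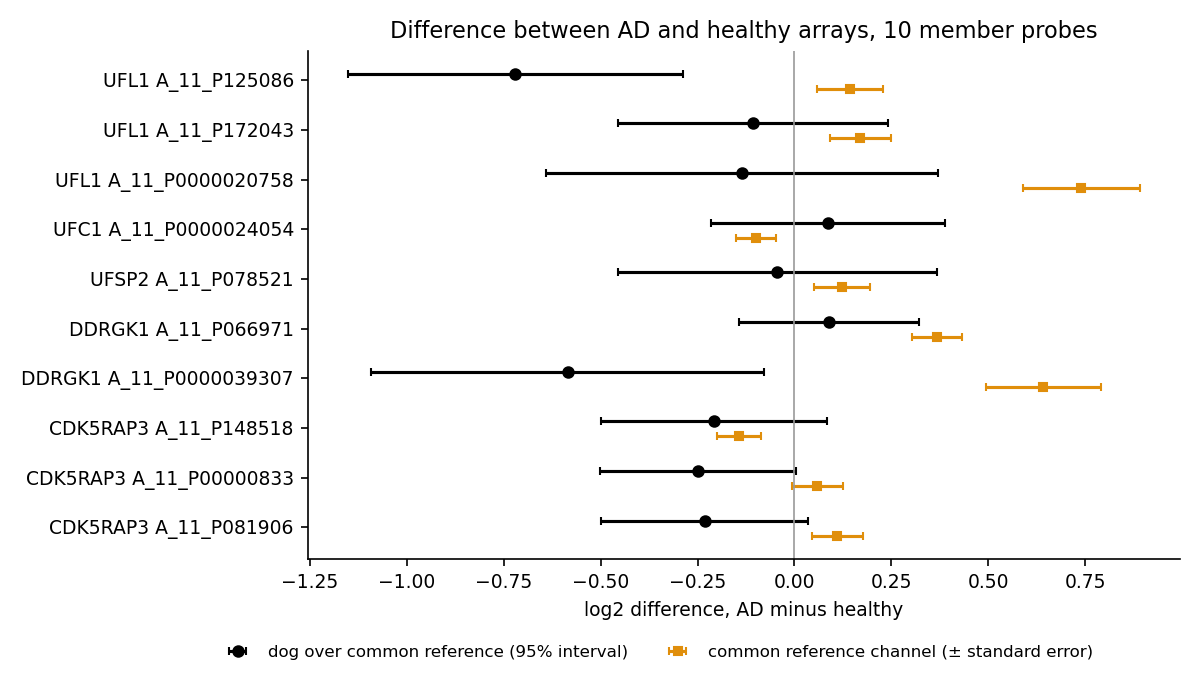
Circles show the log2 difference of AD minus healthy dogs in the ratio to common reference with its 95% interval for the 10 member probes, and squares the same difference in the common reference channel with its standard error. The interval of UFL1 A_11_P125086 is a description and no test, because this contrast chose the probe. UFL1 A_11_P125086 and DDRGK1 A_11_P0000039307 lie lowest in the ratio, at -0.72 and -0.59, and the squares lie highest for UFL1 A_11_P0000020758 (0.74) and DDRGK1 A_11_P0000039307 (0.64).

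The CA repeat of A_11_P125086 was shared with few other probes. The motif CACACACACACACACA, or its complement TGTGTGTGTGTGTGTG, 16 bases searched on both strands and with overlapping matches counted as 1 run, was present in 15 of the 43603 probes (0.0344%), all kept by the filter. In 4 of them the run was CA and in 11 it was TG. The motif and its length were chosen after the values were seen, so the values are a description with no test. All 15 probes were lower in AD dogs, and for the 14 beside UFL1 the log2 difference ran from -1.0 to -0.38 with a median of -0.48. Runs of at least 12 bases were held by 24 other probes with a median of -0.49, and runs of at least 20 bases by 7 with a median of -0.46. Without healthy dog 5 the 14 probes were still all lower, with a median of -0.41, and with normexp and loess the median was -0.35. Apart from PTP4A2, NUFIP2 and ANKRD23, the 14 probes had no gene symbol in the files.

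Dog by dog, these 14 probes moved with the UFL1 probe among AD dogs, and among healthy dogs this rested largely on dog 5. The median log2 ratio of the 14 probes in a dog ran from -0.40 to 0.54 in AD dogs (median 0.21) and from 0.052 to 1.07 in healthy dogs (median 0.56). Healthy dog 5 was again the highest, at 1.07, and AD dog 17 was the highest AD dog, at 0.54. Of the 15 probes with the repeat, 10 had their highest value of all dogs in healthy dog 5, A_11_P125086 among them. The share of all probes with their highest value in this dog is not given here, so the count is a description. The median of the 14 probes and A_11_P125086 had r = 0.663 and rho = 0.653 over the 20 AD dogs, and r = 0.615 and rho = 0.405 over the 8 healthy dogs. Without healthy dog 5, r over healthy dogs was 0.171 and rho 0.107. Whether probes with this repeat bind transcripts of more than 1 gene was not tested.

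**Figure D5:**
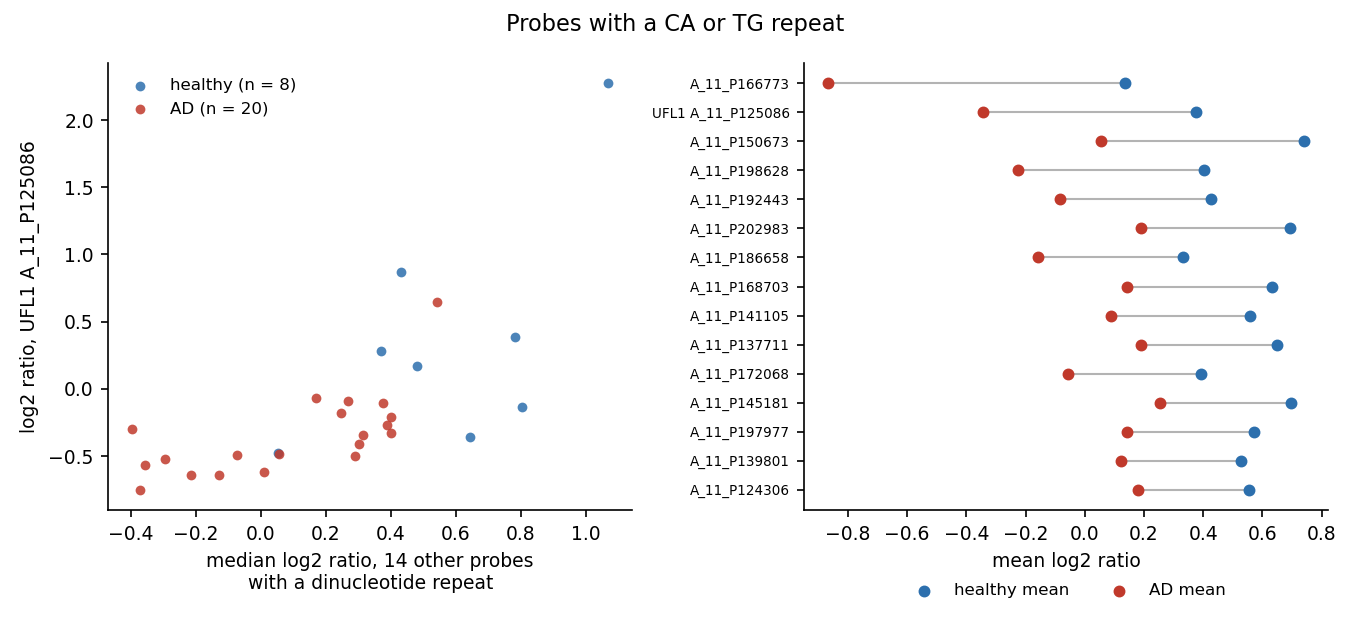
The left panel plots UFL1 A_11_P125086 against the median of the 14 other probes with a CA or TG repeat of at least 16 bases, with 1 point for each dog on log2 scales, and healthy dog 5 lies at the upper right (1.07 and 2.27). The right panel shows the mean log2 ratio of AD and healthy dogs for all 15 probes, where the AD mean is the lower of the 2 in each row.

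Against the probes of its partners, A_11_P125086 had Pearson's r between 0.039 and 0.451 in AD dogs and between -0.605 and 0.527 in healthy dogs. The highest in AD dogs were UFC1 (r = 0.451, rho = 0.238, permutation p = 0.0449 for r) and CDK5RAP3 A_11_P148518 (r = 0.451, rho = 0.331, permutation p = 0.0494 for r), each with an adjusted p of 0.247. With the 2 most distant AD dogs left out, one of which was dog 17, these were 0.0078 and 0.219, so the relation with UFC1 rested on those dogs. With slide means removed UFC1 had r = 0.651 at an adjusted permutation p of 0.0288, but rho = 0.493 at an adjusted permutation p of 0.144. By rho, CDK5RAP3 A_11_P148518 (0.603) and DDRGK1 A_11_P0000039307 (0.588) each had an adjusted permutation p of 0.0497 in that setting.

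By likeness over the 20 AD dogs, the 5 gene symbols closest to A_11_P125086 among 10755 were GBA2 (r = 0.821), SYTL4 (0.814), SERPINF2 (0.812), ZMYND10 (0.797) and PRSS23 (0.793). The likeness rested in large part on AD dog 17, and without it these values were between 0.390 and 0.579. Members of the pathway were left out before this ranking, so none could appear in it.

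Among other genes tied to the pathway, RPL26, SAYSD1 and TRIP4 did not pass the test. RPL26, the ribosomal target, had a log2 difference of 0.19 with a standard error of 0.10, and limma gave it an unadjusted p of 0.0651 and an adjusted p of 0.843. For RPL26 only 2 of 20 AD dogs lay below the healthy mean, and with the dog's channel alone the sign turned, to -0.18. SAYSD1, a membrane protein that reads UFM1 on ribosomes, was at -0.075 by its brightest probe (adjusted p of 0.955 from limma). Its other probe was at -0.28. TRIP4, a transcription coactivator that UFM1 is attached to, was at -0.027 by its brightest probe (adjusted p of 0.981 from limma), and its other probes were at 0.060 and 0.16. No probe was named UFSP1 or ODR4.

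Genes of the ER that work beside the pathway gave no called gene, where 0 of all probes were called. Of 11 measured genes of the protein translocation channel, 0 had an unadjusted p under 0.05, with a median log2 difference of -0.074. Of 20 genes of ER stress and ER-phagy, the removal of ER by autophagy, 0 passed as well, with a median of -0.0065. Over all probes 6.12% had such a p, with a median log2 difference of -0.0096. In short lists, such as those here and below, counts of 0 lie near that share. The leukocyte genes PTPRC, ITGB2 and CORO1A were well above background in all 28 dogs. Among markers of T cells (6 genes measured), B cells (5), neutrophils (5), monocytes (4), red cells (6) and platelets (4), none had an unadjusted p under 0.05. The medians were highest for red cell markers at 0.28, with 6 of 6 above 0, and lowest for platelet markers at -0.30, with 4 of 4 below 0. The 2 skin keratins had a median of -0.13. By flow cytometry, the study reported smaller shares of T cells and of B cells among the lymphocytes of AD dogs. It also reported larger shares of cytotoxic and of regulatory T cells. The part of blood composition in the values of the members was not tested.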

How the data were processed

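Blood RNA of 20 AD and 8 healthy dogs was compared on 28 arrays. The authors scanned the arrays and extracted spot intensities on a linear scale with Agilent Feature Extraction 10.7.3.1, with background subtraction and Lowess normalization of the dyes. The authors' deposited table holds the log10 ratio of both channels for each array, identical to that of the scanner files, and served as an alternative. Its column medians lay between -0.00021 and 0.012.

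Spots of 1 probe were averaged, outlier spots were set to missing, and each array's log2 ratios of the processed signals were centered on their median among kept probes. A probe was kept if it was well above background at least once and if 1 of its 4 medians of processed signal (2 channels, 2 groups) exceeded 100. Groups were compared with lmFit and eBayes of limma 3.58.1 in R 4.3.3, with Benjamini-Hochberg adjustment over 30202 probes and no covariates. Correlations, figures and counts were made in Python 3.11.15 with scipy 1.17.1 and matplotlib 3.10.9. The log2 ratios rest on intensities, so no count or counting error applies.

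All member probes, other ufmylation genes (of which RPL26, SAYSD1 and TRIP4 are reported here), list genes at an unadjusted p under 0.05 (there were 0) and the 5 genes most like the UFL1 probe were named. A gene of a list was represented by its probe with the highest mean signal. The members and lists were chosen with earlier results of these data known. The alternatives varied the filter, outlier spots, background correction (normexp with offset 50), centering, use of the common reference, source of the values, array weights, slide, scan day and dog number as blocks, and left out each slide, scan day 5 or healthy dog 5. Leaving out healthy dog 5, and all settings for the repeat probes, were chosen after seeing the data. Dogs with the same number in both groups are separate animals and were not paired.

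On simulated data for AD minus healthy, 200 of 30202 probes were changed. At the threshold of 0.085, 82.5% were recovered for a log2 change of 1 and 19.5% for a change of 0.5. Of the calls, 12.7% and 2.5% were false, in the same order. Recovery with slide and scan day tied to the group, as on these arrays, was not tested.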

Additional observations from a re-analysis of the deposited data

How the results depend on the processing

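Of 198 values of the 9 member probes under 22 alternatives, 184 kept their sign and their side of the threshold, 12 turned sign and 2 passed an adjusted p of 0.085. The chosen UFL1 probe stayed negative under all of them, between -1.24 and -0.20 when slides were left out in turn. Signs of member probes turned where the difference was smaller than its standard error, and the cause was not tested. In the dog's channel 9 of the 10 member probes were well above background in all 28 dogs, and DDRGK1 A_11_P0000039307 was not in 1 AD dog. With the dog's channel alone, UFL1 A_11_P172043 was 0.10, UFL1 A_11_P0000020758 0.58, UFC1 -0.051 and UFSP2 0.079, and DDRGK1 A_11_P066971 passed at 0.44. With array weights UFC1 was -0.095 and DDRGK1 A_11_P0000039307 passed at -0.77. Without scan day 5 UFC1 was -0.065, with normexp UFSP2 was 0.069, and with slides left out in turn UFSP2 ran from -0.23 to 0.14. Turned signs also occurred for SAYSD1 (0.0071 with normexp, and -0.14 to 0.039 with slides left out), TRIP4 (0.051 with normexp, 0.0097 with the dog's channel alone, and -0.15 to 0.097 with slides left out) and RPL26 (-0.18 with the dog's channel alone).

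Over all probes, the count at an adjusted p of at most 0.085 was 3 with no filter, 1251 with the dog's channel alone and 1009 with array weights, and 0 otherwise. The count at an unadjusted p under 0.05 was 3301, 5879 and 6052 in the same order, 1201 with slide as a random block, 2807 without scan day 5 and 785 to 2778 with slides left out in turn, lowest without slide 3. Of the 1847 probes, 73.0% were lower in AD dogs, against 83.3% when centered on all probes and 53.4% with the dog's channel alone. In lists, the dog's channel alone gave 1 gene at an unadjusted p under 0.05 for each of ER stress, leukocytes, T cells, neutrophils and red cells, and 0 for the translocation channel, B cells, monocytes, platelets and skin.

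Dog number as a replicate block gave UFC1 -0.17, DDRGK1 A_11_P066971 -0.0063 and UFSP2 -0.46 (unadjusted p of 0.0069 and adjusted p of 0.178 from limma). With it all 9 probes were below 0, and 5 of them had an unadjusted p under 0.05, against 5177 of all probes, with 0 past the adjusted threshold. The numbers name separate dogs: same-numbered dogs had correlations of deviations from -0.359 to 0.425 over 8 pairs, and 1 of 8 correlated best with its own number.

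Correlations of A_11_P125086 turned sign with A_11_P172043 in AD dogs (-0.107 without the 2 farthest dogs, -0.106 with the dog's channel alone) and in healthy dogs (0.051, 0.226, and 0.00073 with slide means removed), and with the dog's channel alone for A_11_P0000020758 (-0.157) and CDK5RAP3 A_11_P148518 (-0.015). With slide means removed, 1 of 18 passed by Pearson's r (UFC1, 0.651). By Spearman's rho UFC1 did not pass, and CDK5RAP3 A_11_P148518 (0.603) and DDRGK1 A_11_P0000039307 (0.588) did, in AD dogs.

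In the common reference channel, median centering in place of quantile normalization called 19078 probes against 11807, with UFC1 at 0.14 and CDK5RAP3 A_11_P148518 at 0.10 turned in sign, and passing values of 0.35 and 0.24 for UFL1 A_11_P125086 and A_11_P172043, 0.32 for UFSP2, and 0.24 and 0.25 for CDK5RAP3 A_11_P00000833 and A_11_P081906.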

Other observations

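Several genes outside the pathway varied with the UFL1 probe over the healthy dogs. Over the 8 healthy dogs, SERPINF2, PRSS23 and SYTL4, named above for their likeness over AD dogs, had Pearson's r of 0.935, 0.907 and 0.891 with A_11_P125086, given as a description because the genes were picked for likeness. Healthy dog 5 was at 2.27 on A_11_P125086 and the next healthy dog at 0.87, and r without dog 5 was not taken for SERPINF2, PRSS23 and SYTL4. The log2 differences of these 3 genes between AD and healthy dogs were -0.83, -1.25 and -1.28. GBA2 and ZMYND10, the other 2 named there, had r = 0.505 and -0.129 over healthy dogs and log2 differences of -0.014 and 0.052. SYTL4 and SERPINF2 each had a CA or TG run of 10 bases in the probe, PRSS23 one of 6, ZMYND10 one of 4 and GBA2 one of 2. No set of probes was defined from these values, and the share of all probes with runs of such lengths is not given here.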
